A study of Mus musculus with 6 samples.

Results

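Mineral forms in dentin where inorganic phosphate is plentiful and pyrophosphate, which blocks crystal growth, is scarce. The 9 genes described here set that balance: the phosphatase Alpl, the vesicle enzymes Phospho1 and Smpd3, the pyrophosphate suppliers Enpp1 and Ank, the phosphate transporters Slc20a1 and Slc20a2, the endopeptidase Phex and the vitamin D receptor Vdr. They were taken by gene symbol from a table of 25703 genes, and all 9 were found and passed the filter on low counts. Estimated read counts came from the proximal part of the incisor of C57BL/6 mice 6 weeks old, with 3 libraries of genotype Arid1a fl/fl (control) and 3 of Gli1-CreER;Arid1a fl/fl (Arid1a cKO). Per the labels' protocols, mice received intraperitoneal tamoxifen in corn oil at 1.5 mg per 10 g body weight daily on 3 days at 1 month of age, so controls carry the floxed allele and the drug but no CreER. CreER deletes Arid1a, a subunit of the SWI/SNF chromatin remodeller, in cells that express Gli1 at the time of tamoxifen, and the descendants of those cells inherit the deletion. Cells of other origin keep the gene. Nothing in the labels says whether each library is a separate animal, so p-values measure the spread between these libraries only.

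Alkaline phosphatase at the cell surface (Alpl) cleaves pyrophosphate to phosphate, and Enpp1 makes pyrophosphate from ATP outside the cell. In matrix vesicles Smpd3 releases phosphocholine from sphingomyelin and Phospho1 takes phosphate from phosphocholine. Loss of these enzymes, or of Phex, is known to disturb the mineral of bone and teeth, and odontoblasts as well as enamel epithelium are known to express several of them.

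Library totals ran from 27300932 to 37908478 counts. Arid1a, the targeted gene, was 222, 249 and 223 CPM in the controls and 136, 139 and 145 CPM in the Arid1a cKO libraries, a difference of 1.65-fold (edgeR adjusted p = 0.00802). CPM stands for read counts scaled to a common library size after TMM normalization, and values are listed in replicate order throughout. Odontoblast and enamel markers were present in each library: Dspp, the dentin matrix gene, lay between 1260 and 4521 CPM, and the enamel matrix gene Ambn between 314 and 801 CPM. Control replicate 2 stood apart in the summed level of odontoblast markers. The 9 markers summed to 16746 CPM there against 27077 to 40078 CPM in the other 5 libraries, so values without it are given below. The collagen gene Col1a1 made up most of each of these sums, and not all 9 markers were lowest in control replicate 2. High Xist marked control replicate 3 and Arid1a cKO replicate 1.

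Per kilobase of exon the mean levels of the members in control ran from 2.62 to 244 CPM. Alpl (244 ± 50.5 CPM per kilobase, SD, n = 3) and Slc20a2 (161 ± 37.7) were the most abundant, and their ranges over libraries overlapped (192 to 293 and 120 to 194). Phex (49.2 ± 28.2), Smpd3 (39.7 ± 6.25) and Ank (36.5 ± 2.5) followed, with overlapping ranges. Vdr (25.8 ± 2.76) lay below every value of Smpd3 and Ank, but inside the range of Phex. Enpp1 (5.81 ± 0.701) and Slc20a1 (4.5 ± 0.711) overlapped, and Phospho1 (2.62 ± 1.09 CPM per kilobase) was the lowest. Lengths are the union of all annotated exons (GENCODE M21), so a gene with many long isoforms is read low on this scale.

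**Figure D1:**
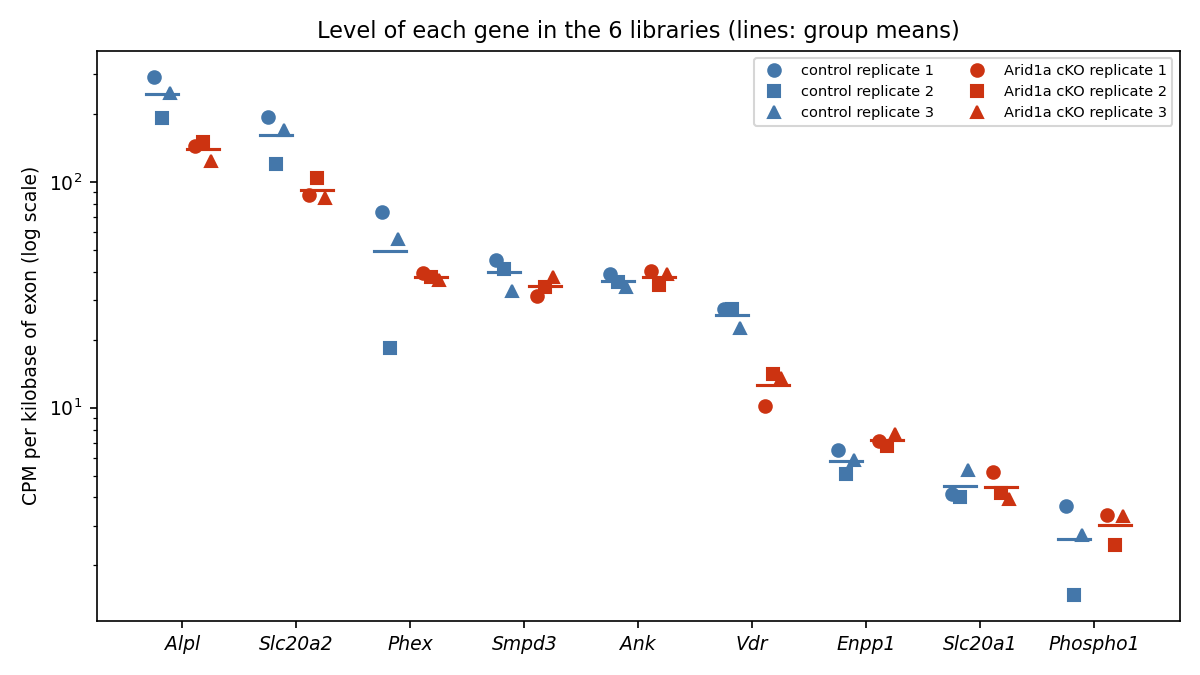
Level of each of the 9 genes in CPM per kilobase of exon (log axis), with 1 marker per library and a line at each group mean (n = 3). Control values (blue) of Alpl, Slc20a2 and Vdr lie above all Arid1a cKO values (red), those of Enpp1 lie below, and the other 5 genes overlap.

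Of the 9 members, 2 were lower in Arid1a cKO (Vdr and Alpl), 0 were higher and 7 did not pass an adjusted p of 0.05. Over all 19613 genes tested 3.96% passed, 2.46% lower and 1.50% higher. In 4 members (Vdr, Alpl, Slc20a2 and Enpp1) the groups did not overlap, as in 29.1% of all genes tested. The median log2 fold change was -0.20 over the members and 0.0043 over all genes tested. The members were chosen with results of these data known, so these shares describe the list and no more. At an unadjusted p under 0.05 by edgeR, 3 members were lower and 1 was higher, and DESeq2 called 3 lower (Alpl, Slc20a2 and Vdr) and 0 higher. Without control replicate 2 the count of lower members was 3, and these were Alpl, Slc20a2 and Phex, with Vdr at an adjusted p of 0.0504. It moved to 1 when control replicate 3, Arid1a cKO replicate 1 or Arid1a cKO replicate 2 was left out, and to 0 when control replicate 1 was left out, as when Arid1a cKO replicate 3 was. It was 1 with epithelial marker levels as a covariate, and 3 with odontoblast marker levels as a covariate or with library size scaling alone. In tissue RNA, fewer cells of a type and less RNA per cell cannot be told apart.

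**Figure D2:**
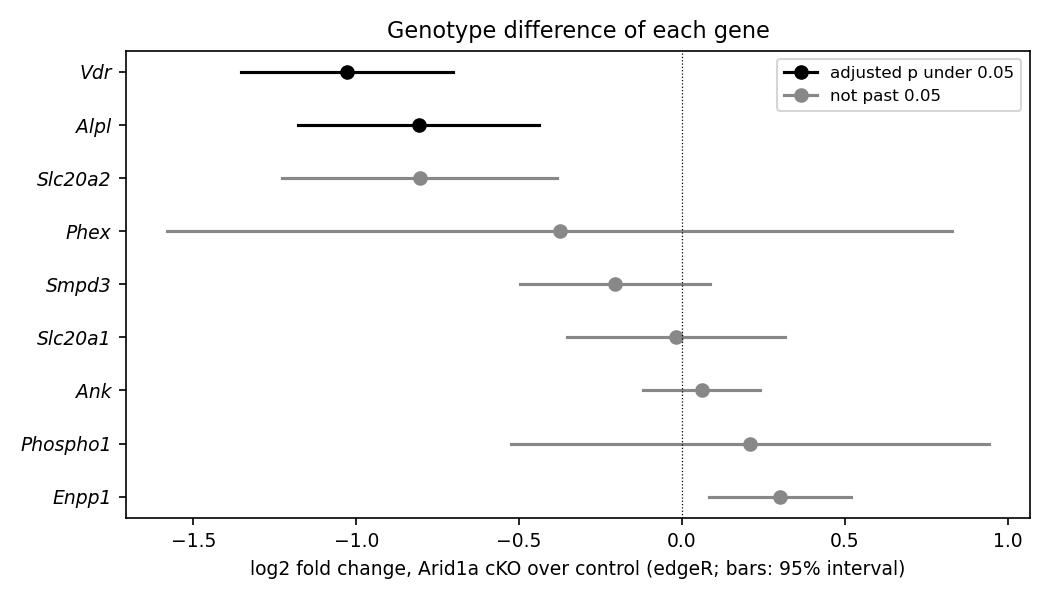
Log2 fold change of each gene, Arid1a cKO over control, with its 95% interval from the edgeR fit (n = 3 per group). Vdr and Alpl (black) passed the threshold, Slc20a2 has nearly the value of Alpl with a wider interval, and the intervals of Phex and Phospho1 are the widest.

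Vdr, the nuclear receptor through which vitamin D acts on transcription, showed the largest difference of the 9 (chromosome 15, 97854425 to 97910630, mm10, minus strand). The 3 controls had 155, 155 and 128 CPM, and the 3 Arid1a cKO libraries 57.7, 80.0 and 76.5 CPM. Every Arid1a cKO library was lower than every control, and Arid1a cKO replicate 1 was the lowest. The means were 146 ± 15.6 and 71.4 ± 12 CPM (SD, n = 3), so Vdr was 2.04-fold lower in Arid1a cKO (log2 fold change -1.03 with an SE of 0.138, edgeR adjusted p = 0.0162). The difference was -0.98 between the 4 libraries with low Xist and -1.14 between the 2 with high Xist. The call was lost, at nearly the same fold, without control replicate 1 (adjusted p = 0.0623 by edgeR), control replicate 2 (0.0504) or Arid1a cKO replicate 3 (0.0552).

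Alpl, the alkaline phosphatase that removes pyrophosphate (chromosome 4, 137741733 to 137796384, minus strand), measured 1181, 774 and 999 CPM in the controls. The Arid1a cKO libraries gave 580.3, 608 and 498 CPM. The groups did not overlap, though control replicate 2 came nearest to the Arid1a cKO libraries. The means of 985 ± 204 and 562 ± 57.2 CPM (SD, n = 3) differed 1.75-fold (log2 fold change -0.81 with an SE of 0.159, edgeR adjusted p = 0.0379). Without control replicate 2 the log2 fold change was -0.94 (edgeR adjusted p = 0.0279). Without each other library in turn the call was lost, with log2 fold changes from -0.87 to -0.65 and adjusted p from 0.0673 to 0.118. The difference was -0.80 between libraries with low Xist and -0.78 between those with high Xist.

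Promoter sequences are shown for the 2 genes that passed the test, since both were lower in all 3 Arid1a cKO libraries. They are the 250 bases before each start site in RefSeq (GRCm38.p6), 5′ to 3′ on the strand of the gene, and capitals mark the GC box GGGCGG on either strand, a letter string that factors of the Sp family can bind. Vdr has 1 entry at chr15:97908297-97908546, inside the span given above. Alpl has an upstream entry at chr4:137796385-137796634 and an internal entry at chr4:137766476-137766725, which lies before the first exon of a shorter transcript.
Vdr: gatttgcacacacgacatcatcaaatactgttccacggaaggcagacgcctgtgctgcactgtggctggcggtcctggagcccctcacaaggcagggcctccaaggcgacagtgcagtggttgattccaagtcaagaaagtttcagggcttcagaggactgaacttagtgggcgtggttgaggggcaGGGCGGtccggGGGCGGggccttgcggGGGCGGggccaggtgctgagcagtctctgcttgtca
Alpl upstream: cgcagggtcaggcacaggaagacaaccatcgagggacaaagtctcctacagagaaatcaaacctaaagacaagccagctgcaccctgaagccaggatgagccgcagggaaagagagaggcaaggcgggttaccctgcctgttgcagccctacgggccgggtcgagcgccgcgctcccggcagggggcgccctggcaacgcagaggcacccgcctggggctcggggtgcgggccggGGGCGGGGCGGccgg
Alpl internal: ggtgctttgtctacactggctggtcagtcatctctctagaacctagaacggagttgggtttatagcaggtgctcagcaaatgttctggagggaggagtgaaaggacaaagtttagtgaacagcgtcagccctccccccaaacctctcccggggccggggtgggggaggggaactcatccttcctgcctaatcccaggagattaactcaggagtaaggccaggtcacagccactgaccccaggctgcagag

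The Vdr sequence holds 3 GC boxes and the upstream Alpl sequence 2, which overlap, while the internal Alpl sequence holds 0. A GC box occurs in 32.7% of all 32851 promoter entries over the same 250 bases. The nuclear receptor hexamer AGGTCA, searched on both strands, occurs once in the internal Alpl sequence, 31 bases before the start, and in 14% of all entries. The hexamer GGTTCA, found in 8.85% of entries, and the RUNX core TGTGGT, found in 14.1%, are in none of the 3 sequences, nor is the homeodomain core TAATTA (4.84%). The TATA box TATAAA, found in 12.4% of entries, searched on both strands, matches once in the internal Alpl sequence, 192 bases before the start, and not in the others. These are matches of letters in short windows and were not tested as binding sites. RefSeq entries were matched for 7 of the 9 members, all but Smpd3 and Slc20a2. Members that did not pass also had GC boxes in their entries: Phospho1 3, Ank 2, Enpp1 1, and Slc20a1 2 and 1 in separate entries. The Phex entry had 0.

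Slc20a2, a sodium-dependent phosphate importer (chromosome 8, 22476788 to 22569612, plus strand), ran close to Alpl in all libraries. It measured 1203, 744 and 1057 CPM in the controls and 542, 650.2 and 527 CPM in the Arid1a cKO libraries. The groups did not overlap, with control replicate 2 again the lowest control. The means of 1002 ± 234 and 573 ± 67.2 CPM (SD, n = 3) gave a log2 fold change of -0.81 (SE 0.18), which missed the threshold (edgeR adjusted p = 0.0558). It passed without control replicate 2 (log2 fold change -0.97, edgeR adjusted p = 0.0272) and with DESeq2 (-0.80, adjusted p = 4.2e-05). The difference was -0.69 between libraries with low Xist and -0.96 between those with high Xist. Its locus shares 95 bases with Smim19, a gene of the other strand, and the sources used here do not say whether counting used strand.

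Slc20a1, the second importer of the family (chromosome 2, 129198764 to 129211616), is the low one in this tissue. It measured 23.2, 22.5 and 29.7 CPM in control and 29.1, 23.3 and 22.0 CPM in Arid1a cKO, in replicate order, and the groups overlapped. The log2 fold change was -0.02, with a 95% interval of -0.35 to 0.32 (edgeR adjusted p = 0.959), and its sign turned with the scaling. The log2 ratio of Slc20a1 to Slc20a2 was -5.69, -5.05 and -5.15 in control and -4.22, -4.81 and -4.58 in Arid1a cKO. The ratio was higher in every Arid1a cKO library, while Slc20a2 stayed the more abundant of the pair.

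On the side of pyrophosphate supply, Enpp1 (chromosome 10, 24637914 to 24712159, minus strand) was 66.5, 52.1 and 60.1 CPM in the controls. The Arid1a cKO libraries had 72.8, 69.6 and 78.0 CPM. All Arid1a cKO values lay above all control values, by a small margin. The means of 59.6 ± 7.19 and 73.5 ± 4.26 CPM (SD, n = 3) gave a log2 fold change of 0.30 (SE 0.0941, 95% interval 0.08 to 0.52), which did not pass over all genes (edgeR adjusted p = 0.114). The difference was 0.32 between libraries with low Xist and 0.28 between those with high Xist. Ank, which lets pyrophosphate or its precursor ATP out of the cell (chromosome 15, 27466677 to 27594909), was 142, 130.2 and 124 CPM in control and 145, 126 and 141 CPM in Arid1a cKO. The groups overlapped, and the log2 fold change of 0.06 had a 95% interval of -0.12 to 0.24 (edgeR adjusted p = 0.702). Ank overlaps Otulin on the opposite strand over 52275 bases of its span, so its reads may hold some of that gene.

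Within each library, Alpl was therefore set against its counterparts. The log2 ratio of Alpl to Enpp1 was 4.15, 3.89 and 4.05 in the controls and 2.99, 3.13 and 2.67 in the Arid1a cKO libraries. Mean ratios were 4.03 ± 0.131 and 2.93 ± 0.233 (SD, n = 3), and the difference of -1.10 on the log2 scale does not depend on library scaling. Alpl to Ank gave 3.06, 2.57 and 3.01 in control and 2.0, 2.27 and 1.82 in Arid1a cKO, also without overlap. These ratios are descriptions of members already shown and were not tested.

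**Figure D3:**
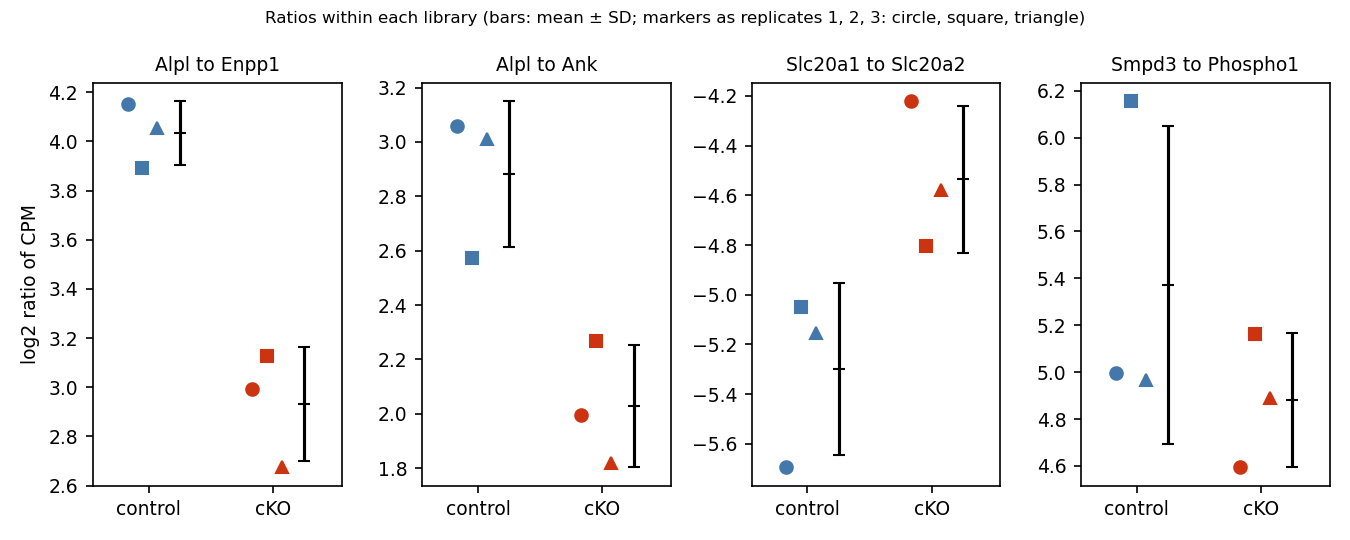
Log2 ratios of CPM within each library for 4 pairs of members, each panel on its own scale, with markers for the libraries and bars for mean ± SD (n = 3). Alpl to Enpp1 is 3.89 to 4.15 in control and 2.67 to 3.13 in Arid1a cKO, Alpl to Ank and Slc20a1 to Slc20a2 are also apart, and Smpd3 to Phospho1 overlaps.

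The vesicle enzymes did not pass. Smpd3, neutral sphingomyelinase 2 (chromosome 8, 106252548 to 106337988), was 237, 214 and 172 CPM in control and 164, 179 and 198 CPM in Arid1a cKO, with overlapping groups. Its log2 fold change of -0.20 had a 95% interval of -0.50 to 0.09 (edgeR adjusted p = 0.38). Smpd3 overlaps the noncoding RNA gene Gm26786 on the same strand over 85441 bases, and Prmt7 and Gm10629 on the opposite strand. Its reads may therefore hold some of those genes. Phospho1 (chromosome 11, 95824499 to 95832140) was 7.43, 3.01 and 5.51 CPM in control and 6.78, 5.01 and 6.70 CPM in Arid1a cKO. That is 83 to 266 counts in a library, and the 95% interval of its log2 fold change of 0.21 ran from -0.52 to 0.94 (edgeR adjusted p = 0.746). Phospho1 lies within the span of Zfp652 on the same strand and overlaps Abi3 on the opposite strand, so its counts are uncertain. The log2 ratio of Smpd3 to Phospho1 ran from 4.97 to 6.16 in control and from 4.59 to 5.16 in Arid1a cKO.

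Phex, an endopeptidase of bone and tooth cells whose loss causes phosphate wasting (chromosome X, 157162075 to 157415312, minus strand), varied more among controls than between genotypes. It was 463, 115 and 351 CPM in the controls and 248, 238 and 231 CPM in the Arid1a cKO libraries. The Arid1a cKO libraries lay close together inside the range of the controls, with SDs of 8.53 CPM and 178 CPM (n = 3). The log2 fold change was -0.38, with a 95% interval of -1.58 to 0.83 (edgeR adjusted p = 0.707). Without control replicate 2 it was -0.76 (edgeR adjusted p = 0.0418), and without control replicate 1 it was 0.04 (0.973), so its size and sign turned on single control libraries. Between libraries with low Xist, which include control replicate 2, the difference was 0.02. Between those with high Xist, 1 control and 1 Arid1a cKO library, it was -0.50. Some matrix genes, though not all, had the same low library. In the controls Col1a1 was 27872, 10627 and 21709 CPM, Dspp 4122, 1260.2 and 4332 CPM and the osteocalcin gene Bglap 1683, 524 and 1117 CPM. These 3 were picked after their values were seen. Among the controls, the matrix genes Ibsp, Spp1, Mgp and Tnfrsf11b were instead lowest in control replicate 1. In Arid1a cKO Col1a1 ranged from 17683 to 19563 CPM, Dspp from 3412 to 4521 CPM and Bglap from 639 to 850.2 CPM. None of the 3 passed by edgeR (adjusted p = 0.871, 0.77 and 0.453).

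**Figure D4:**
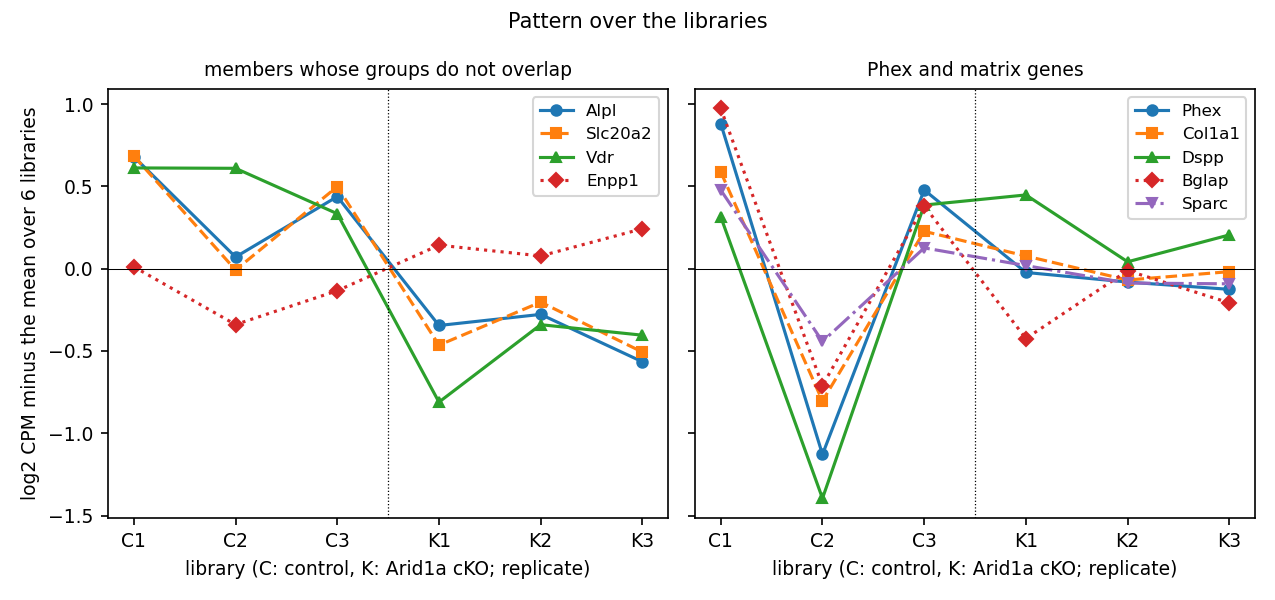
Log2 CPM of each gene minus its mean over the 6 libraries (C1 to C3 control, K1 to K3 Arid1a cKO, by replicate), for the 4 members whose groups do not overlap (left) and for Phex with 4 matrix genes (right). Alpl and Slc20a2 nearly coincide, Enpp1 runs the other way, and Phex is low in control replicate 2 together with the 4 matrix genes shown.

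The likeness of Alpl and Slc20a2 was measured as the root mean square difference of their centred log2 CPM over the 6 libraries, which was 0.0743. Among 12830 genes of at least 2 CPM, Slc20a2 came second to Alpl, after the protease gene Adamts4 (0.0419) and before Ankrd29 (0.087). Closest to Vdr were the netrin receptor gene Unc5c (0.0692), Stbd1 (0.0918) and the synapsin gene Syn2 (0.0922). These neighbours were chosen by a profile that includes the difference between genotypes, so their own log2 fold changes, from -1.05 to -0.79, follow from the choice.

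**Figure D5:**
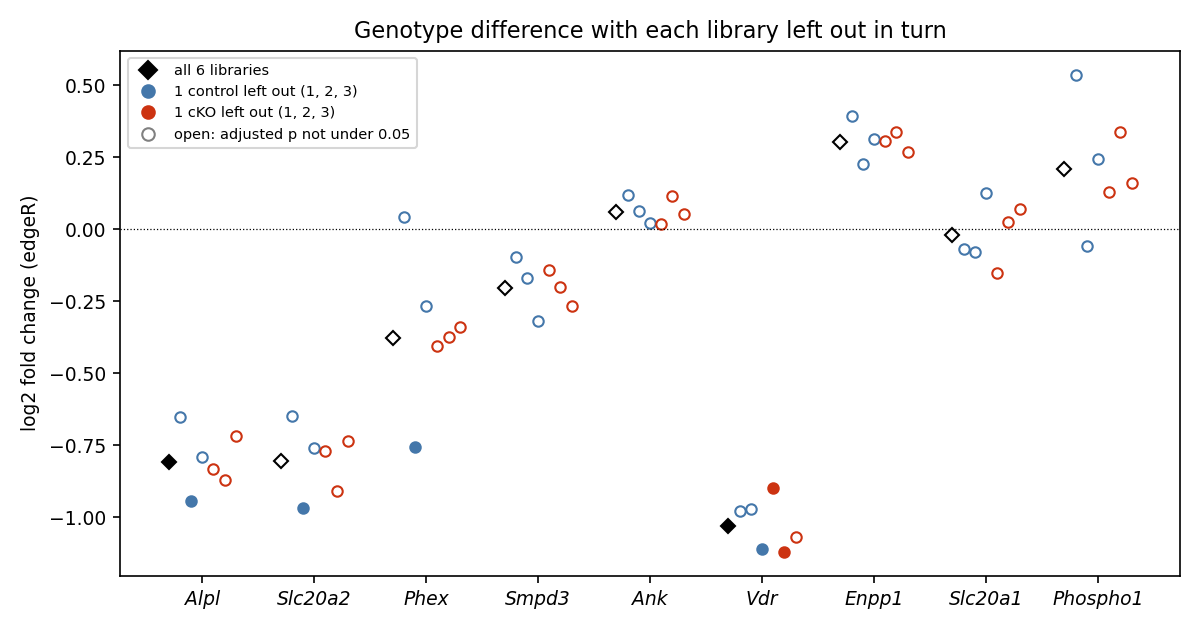
Log2 fold change of each gene by edgeR with all 6 libraries (diamond) and with each control (blue) or Arid1a cKO library (red) left out in turn. Filled symbols have an adjusted p under 0.05 and open symbols do not. Over filled and open symbols together, Vdr stays between -1.12 and -0.90 and Alpl between -0.94 and -0.65, whereas Phex runs from -0.76 to 0.04.

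Other genes of these pathways were followed in 9 lists of 110 genes, of which 96 were tested: 4 were lower and 2 higher, that is 4.17% and 2.08%, against 2.46% and 1.50% of all genes. Their median log2 fold change was -0.05, and 34 of them (35.4%) had groups without overlap, against 29.1% of all genes tested. Both pathway counts depended on single libraries. The lower count was 2 without control replicate 1 or 3 and 1 without Arid1a cKO replicate 3, and the higher count was 0 without any 1 of the 6 libraries.

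Among relatives of the members, Enpp2, which makes the lipid signal lysophosphatidic acid, was 2.39-fold lower, with means of 607 ± 107 and 254 ± 17.9 CPM (SD over 3 libraries, edgeR adjusted p = 0.00919). It was 717, 505 and 598 CPM in control and 264, 264 and 233 CPM in Arid1a cKO, and it passed without each library in turn (adjusted p of up to 0.0455). None of the 9 relatives tested passed the threshold as higher, and the list median was -0.13. At an unadjusted p under 0.05 by edgeR, 3 relatives were lower and 1 was higher. DESeq2 called 2 of them lower (Enpp2 and Mme) and 0 higher. In the list of pyrophosphate and nucleotide handling, Enpp3, an ectoenzyme that also cleaves nucleotides, was 1.80-fold lower, with means of 42.1 ± 6.43 and 23.4 ± 2.22 CPM (SD over 3 libraries, edgeR adjusted p = 0.0175). Enpp3 missed the threshold without control replicate 1 (0.0719), and likewise without Arid1a cKO replicate 3 (0.0693), and it was the 1 call among 10 genes tested (median 0.22).

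Of 13 genes of phosphocholine and sphingomyelin supply, 1 was higher and 0 lower by edgeR (median -0.04), with 4 lower and 2 higher at an unadjusted p under 0.05. DESeq2 called 2 lower (Enpp6 and Chka) and 1 higher (Smpdl3b). The sphingomyelinase-like gene Smpdl3b had means of 4.68 ± 0.0723 and 8.02 ± 1.55 CPM (SD over 3 libraries, edgeR adjusted p = 0.0412), a call lost without any 1 library (adjusted p from 0.066 to 0.124). Enpp6 and Chka, which release and make phosphocholine, had groups that did not overlap and log2 fold changes of -0.62 and -0.63, and did not pass (edgeR adjusted p = 0.0783 and 0.101; named after their values were seen). Of 9 genes of phosphate transport and its hormonal control, 0 passed by edgeR (median 0.03), with 1 lower and 2 higher at an unadjusted p under 0.05, and DESeq2 called 2 higher (Slc34a2 and Fam20c). The smallest p-values were those of the transporter Slc34a2 (log2 fold change 1.52, edgeR adjusted p = 0.0661, at 1.66 CPM in control) and the parathyroid hormone receptor Pth1r (-0.23, 0.0849). Fgf23, the bone hormone that lowers phosphate, had 1 to 4 counts per library and was not tested.

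Around Vdr, 1 of 17 genes of vitamin D metabolism and receptor partners was higher and 0 lower (median -0.05). This was Rxrg, a retinoid X receptor gene, at 1.69 ± 0.247 and 3.18 ± 0.0497 CPM (SD, n = 3, edgeR adjusted p = 0.0396), which did not pass without any 1 library (0.0694 to 0.114). Cyp24a1, the enzyme that breaks down active vitamin D and a sensitive target of the receptor, had 1 to 5 counts per library and was not tested. Of 11 target genes of the receptor tested, 0 passed by edgeR (median -0.17), with 2 higher and 0 lower at an unadjusted p under 0.05, and DESeq2 called 1 (Cdkn1a, higher). The smallest p-values were those of the CDK inhibitor Cdkn1a (log2 fold change 0.42, edgeR adjusted p = 0.0872) and the calcium channel Trpv6 (0.49, 0.101).

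None of 13 mineral matrix proteins tested passed by edgeR (median 0.01), with 3 higher and 0 lower at an unadjusted p under 0.05, and DESeq2 called 3 higher (Fam20c, Mgp and Tnfrsf11b). The smallest p-values were those of Fam20c, the kinase that phosphorylates matrix proteins (log2 fold change 0.81, edgeR adjusted p = 0.126), and the RANK ligand decoy Tnfrsf11b (0.73, 0.189). In the list of calcium and matrix vesicle genes 1 of 14 was lower, the carbonic anhydrase Car12 (1.54-fold, with means of 169 ± 17.7 and 109.7 ± 17.2 CPM, SD over 3 libraries, edgeR adjusted p = 0.0407), lost without each library except Arid1a cKO replicate 2 (0.0615 to 0.13). Of 7 transcription factors of osteoblasts and odontoblasts, 1 was lower, the homeobox gene Msx2 (1.40-fold, edgeR adjusted p = 0.0194). The call of Msx2 did not hold when control replicate 3 (0.0596) or Arid1a cKO replicate 2 (0.054) or 3 (0.0667) was dropped.

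Markers of several cell types moved beside Vdr and Alpl. Of 8 markers of dividing cells 5 were higher (Cdk1, Pcna, Top2a, Birc5 and Mcm5), and their summed level was 496 to 562 CPM in control and 670.4 to 751 CPM in Arid1a cKO. Of these 5 genes, 1 passed without control replicate 3 (Cdk1), 2 without control replicate 1 (Cdk1 and Pcna) and 3 to 5 without each of the others. Of 6 markers of dental follicle and periodontal ligament 3 were lower (Fmod, Col12a1 and Aspn), and at an unadjusted p under 0.05 by edgeR 2 were higher, namely Postn (log2 fold change 0.56) and Tnmd (0.60), of which DESeq2 called Postn. The list summed to 2710.0 to 2966 CPM in control and 1709 to 1813 CPM in Arid1a cKO. Fmod (means of 1273 and 433 CPM) and Col12a1 (1276 and 862 CPM) made up most of that sum. Schwann cell markers summed to 32.1 to 91.6 and 99.6 to 161 CPM, with 1 of 5 lower (Cdh19) and 0 higher. Their part in the results was not tested.

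Odontoblast markers, mostly Col1a1 by level, overlapped in sum (16746 to 40078 CPM in control and 27077 to 29614 CPM in Arid1a cKO), with 1 of 9 lower, the intermediate filament gene Nes (1.82-fold, edgeR adjusted p = 0.0359). At an unadjusted p under 0.05 by edgeR, 3 were lower and 1 was higher. DESeq2 called Nes and Serpinf1 lower and Col24a1 higher. With the mean of these 9 markers as a covariate, the log2 fold changes of Vdr, Alpl and Slc20a2 were -1.03, -0.78 and -0.77 (edgeR adjusted p = 0.0289, 0.0145 and 0.0153). Dental epithelium markers summed to 665 to 1121 CPM in control and 930.2 to 1550 CPM in Arid1a cKO, with 1 of 11 called higher by edgeR (Epcam). Of the 11, 10 had a positive log2 fold change (median 0.47). In this list 3 were higher and 0 lower at an unadjusted p under 0.05 by edgeR, and DESeq2 called Epcam and Sox2 higher. Ameloblast markers summed to 992 to 4209 CPM in control and 1106 to 2211 CPM in Arid1a cKO, with 0 of 8 past the threshold by edgeR. Among these 8, 1 was higher at an unadjusted p under 0.05 by edgeR, and 1 by DESeq2 (Klk4). With the mean of both epithelial lists as a covariate, Vdr passed (-0.94, edgeR adjusted p = 0.00813) and Alpl and Slc20a2 did not (-0.80, 0.0664 and -0.79, 0.0971). With the dental epithelium list alone, chosen after the data were seen, the values were -0.81 (0.0352) for Vdr, -0.71 (0.187) for Alpl and -0.67 (0.253) for Slc20a2. Osteoblast and osteocyte markers summed to 1017 to 2585 CPM in control and 1042 to 1409 CPM in Arid1a cKO, with 1 of 6 higher, the osteocyte gene Sost. Macrophage, endothelium, osteoclast, red cell and skeletal muscle lists had 0 calls by edgeR. At an unadjusted p under 0.05 they had 1, 1, 1, 0 and 2 genes, and DESeq2 called 1 gene in all, the muscle creatine kinase gene Ckm, which was lower. Ckm had 1 to 113 counts per library and fell below the filter used with edgeR. The 3 muscle markers tested summed to 1.85, 19.4 and 5.08 CPM in control and 2.22, 1.27 and 2.14 CPM in Arid1a cKO, so control replicate 2 was the highest. Among 5 pericyte and smooth muscle markers 1 was lower (Notch3) and 1 higher (Myh11). Of the marker genes called, Fmod, Cdh19 and Cdk1 passed without each library in turn, Myh11 missed the threshold in all 6 of these fits, and Nes passed only without Arid1a cKO replicate 2.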

How the data were processed

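RNA of the proximal incisor was measured in 6 libraries, 3 per genotype; numbers name libraries in accession order. The labels' protocols speak of pairs of samples but do not say which libraries form them, so the libraries were compared as unpaired. The submitters' processing notes name STAR 2.6.1d, Partek and the build mm10, and per the labels' protocols single-end reads of 75 cycles came from a NextSeq500. The authors deposited estimated counts of 25703 genes, which were rounded here. A further deposited table holds normalized signal values of 21456 genes, each equal to the count plus 1 over 1 factor per library (to within 0.00067%). The sources used here give neither the annotation, the strand setting nor the scaling method.

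Genes were kept with filterByExpr (minimum count 10), which left 19613, scaled by TMM and compared with the quasi-likelihood F test of edgeR 4.0.16 (two-sided, no covariates, Benjamini-Hochberg over all genes tested, threshold 0.05) in R 4.3.3. SE is the absolute log2 fold change over the square root of F, and 95% intervals use the degrees of freedom of that test. The common biological coefficient of variation was 15.8%, so the spread between libraries limits precision more than counting does, except in low genes. Symbols were matched to GENCODE M21 (97.5% found), and the deposited stop minus 1 is printed as the end. The main edgeR fit was tested on counts simulated from the means and dispersions fitted to these data. The simulation did not cover the other fits or steps.

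The members and lists were chosen with earlier results of these data known. Named genes are the 9 members, Arid1a, up to 4 called genes of each list by smallest p (2 by smallest p where none was called), and the 3 nearest genes to each called member. Named outside this rule, after their values were seen, are the fifth called dividing cell gene and genes that DESeq2 or the unadjusted p picked out where edgeR called none. Named likewise are Enpp6, Chka, Serpinf1, Col24a1, Postn, Tnmd, Col1a1, Bglap, Ibsp, Spp1, Sox2 and Mme. So are the checks of tissue (Dspp, Ambn), and Fgf23 and Cyp24a1, which were not tested. Not all genes of marker lists with no call are named. Alternatives were RLE, upper quartile and library size scaling, DESeq2 1.42.0, limma-voom and limma 3.58.1 on the normalized table with pseudocounts 1, 0.5 and 5, other filters, no rounding, robust estimation off, each library left out, and covariates for sex-linked expression and for odontoblast and epithelial markers. Figures were drawn with matplotlib 3.10.9.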

Additional observations from a re-analysis of the deposited data

How the results depend on the processing

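Both calls among the members kept their direction under all 22 alternatives, in which the log2 fold change of Vdr ran from -1.12 to -0.90 with libraries left out and from -1.04 to -0.81 otherwise, and that of Alpl from -0.94 to -0.65 and from -0.81 to -0.71. Vdr missed the threshold in 3 of the 22 and Alpl in 7. Slc20a2, which missed it in the main fit, passed in 4 of the 22. Leaving out each library in turn gave 0 to 3 members lower, 160 to 532 genes past the threshold, 1 to 4 other pathway genes lower and 0 higher. DESeq2 called 1905 genes, against 777 by edgeR, with 8 other pathway genes lower and 7 higher, against 4 and 2. The sex term gave 1272 genes. The dental epithelium list alone as a covariate gave 137 genes, 1 member lower and 1 and 0 other pathway genes lower and higher, and both epithelial lists gave 1 member lower and 1 pathway gene higher, as did limma-voom for the latter (1). With libraries left out Slc20a1 ran from -0.15 to 0.12, Phex from -0.76 to 0.0438 (called at -0.76, without control replicate 2) and Phospho1 from -0.0587 to 0.54. Signs turned in these 3: Slc20a1 was 0.0012 with upper quartile scaling, 0.0078 with library size alone, and 0.12, 0.03 and 0.07 without control replicate 3 and Arid1a cKO replicates 2 and 3, Phex was 0.0438 without control replicate 1 and Phospho1 -0.0587 without control replicate 2. The causes were not tested. Fits without a library rest on 2 libraries in 1 group. No paired analysis was possible because the labels' protocols speak of pairs of samples without saying which libraries form a pair.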
